A study of Rattus norvegicus with 10 samples.

Results

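M2 macrophages of the spleen were compared between rats with glomerulonephritis (GN) and control rats, over all genes of the expression table. The comparison used the 2 GN and the 2 control libraries of the 10 libraries of the series and all 9003 genes. All animals were WKY/NCrj rats, female and aged 7 to 12 weeks where the study's methods describe the nephritis model. GN animals had received the mouse monoclonal antibody TF78, which binds type IV collagen of the glomerular basement membrane and gives rapidly progressive glomerulonephritis, and had not been treated with adipose-derived mesenchymal stem cells (ASCs). Control animals were in the physiological condition. From both groups, the tissue was digested with collagenase, and cells were isolated by an antibody against CD11b/c and sorted by flow cytometry as M2 macrophages. The other 6 libraries, EV-positive and EV-negative macrophages of nephritic rats given ASCs, entered only the estimate of the spread. The sources used here call the libraries biological replicates, but give neither the number of rats behind each library nor the day after induction at which the GN cells were taken, and p-values measure only the spread between these libraries.

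Macrophages of the spleen clear aged red cells and debris, take up antigen and immune complexes, and present peptides to CD4 T cells on MHC class II molecules. M2 is the name for macrophages of the alternatively activated, anti-inflammatory type, often marked in tissues by the mannose receptor Mrc1, the haptoglobin-hemoglobin receptor Cd163 and arginase 1. Immediate early genes such as Fos, Atf3 and Zfp36 are transcribed within minutes of a stimulus and encode transcription factors and brakes on inflammatory signaling. Eicosanoids, the prostaglandins, thromboxanes and leukotrienes, are lipid mediators that macrophages make from arachidonic acid.

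The levels are TMM-normalized CPM, read counts scaled to library size, not divided by gene length, so they compare libraries and not genes. Between 24734640 and 26617093 reads could be recovered per library, and 3 reads, the smallest number taken as detection, were worth between 0.113 and 0.124 CPM, which covers counting error only. Of 16 macrophage markers 15 were in the table, and their summed level was 27700 to 28100 CPM in the control and 32720 to 33520 CPM in the GN libraries. The lysosomal protein Cd68 gave 1316 and 1373 CPM in the control libraries and 1245 and 1249 CPM in the GN libraries, the growth factor receptor Csf1r 6288 and 5800.0 CPM against 7019 and 6966 CPM in the same order, and the myeloid transcription factor Spi1 1007 and 1008 CPM against 999 and 1010.0 CPM. In contrast, the M2 markers Mrc1 (1.81 and 0 CPM against 0.158 and 0.753 CPM), Cd163 (1.16 and 0 CPM against 1.81 and 0.716 CPM) and Arg1 (0.655 and 1.98 CPM against 2.01 and 0.829 CPM) did not exceed 2.01 CPM in any of the 4 libraries. Cd68, Csf1r and Spi1 were thus high and these M2 markers absent or low. Mrc1 and Cd163 belong to the macrophage list too, and its member C1qb was also low, as given with the complement genes. The cells are called M2 macrophages here as the labels name them. The T cell gene Cd3e was at 0 in all 4 libraries, and the B cell gene Ms4a1 did not exceed 0.527 CPM. Another B cell gene, Cd79b, was at 87 and 109 CPM in control and at 42.1 and 67.6 CPM in GN, and passed the test. B cell markers (8 of 14 in the table) summed to 220.5 to 241.8 CPM in control and 184.1 to 242.7 CPM in GN. Erythroid and endothelial markers that passed are given with the eicosanoid genes and with the markers of other cells. In sums over a list, neutrophil markers (9 of 14 in the table) were at 554 to 561 CPM in control and 615 to 696 CPM in GN, NK and T cell markers (15 of 19, with Cd8a and Cd8b making up most) at 282 to 287 CPM and 358 to 368 CPM, and dendritic cell markers (10 of 12) at 641 to 655 CPM and 638 to 661 CPM, and no member of these 3 lists passed the test. In bulk samples, fewer cells of a type and less RNA per cell cannot be told apart.

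At a false discovery rate (FDR) under 0.1 by limma, 158 genes differed between GN and control macrophages, which was 1.75% of the 9003 genes. Of these, 84 were higher (0.933%) and 74 lower (0.822%) in GN, and the values of the GN and control libraries did not overlap for any of the 158 genes. Without overlap were also 21.9% of all genes in the higher and 22.0% in the lower direction. The rises were the larger changes. The median log2 difference, taken on log2(CPM + 1), which understates the change of low genes, was 0.86 among the genes called higher and −0.62 among those called lower, and 33 genes rose at least 2-fold on this scale whereas 5 fell at least 2-fold. Over all genes the median was −0.00014. The plot of all genes shows this asymmetry, with the called rises spread over low and high levels. The number of called genes fell when any 1 of the 4 libraries was left out. It was 34 without GN replicate 1, 41 without GN replicate 2, 87 without control replicate 1 and 75 without control replicate 2, and 22 genes, 14 higher and 8 lower, were called in each of these 4 fits. After the group means were subtracted from each gene, same-numbered EV-positive and EV-negative libraries were weakly correlated across genes, at r = 0.122 to 0.295. With their number as a block among these 6 libraries, 392 genes were called (4.35%), 187 higher and 205 lower, with all of the 158 among them.

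**Figure D1:**
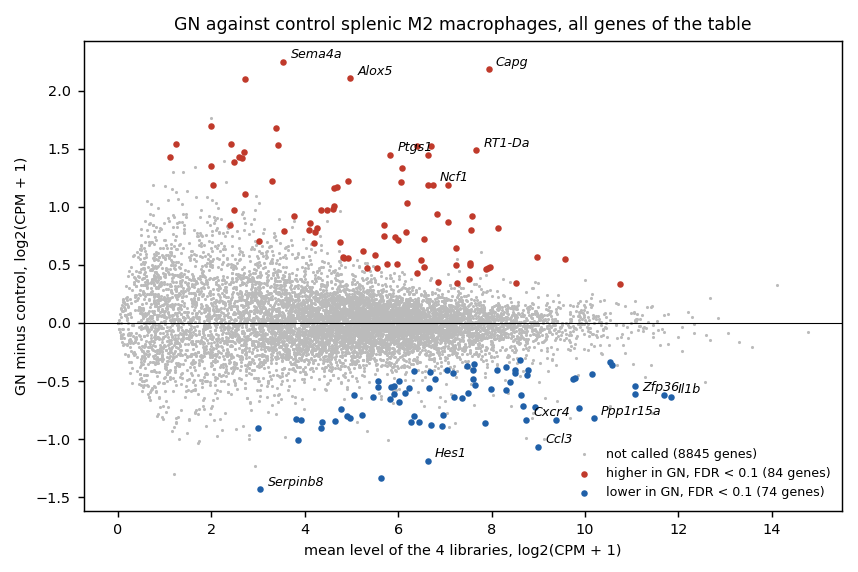
Each point is a gene, with its mean level over the 4 libraries (log2 of CPM + 1) on the x axis and the GN minus control difference (log2) on the y axis. Red points are the 84 genes called higher and blue points the 74 called lower in GN at an FDR under 0.1. Called rises reach beyond 2 log2 units, and called falls end at −1.43 for Serpinb8.

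The largest rises came from control levels of 0.77 to 114 CPM. The actin-capping protein Capg gave 93.1 and 81.7 CPM in the control libraries and 391 and 410.0 CPM in the GN libraries, so both GN values lay more than 4-fold above the control values, with a log2 difference of 2.19 (standard error 0.13, adjusted p = 1.05e-06). The semaphorin Sema4a, a membrane ligand on antigen-presenting cells, was at 3.2 and 2.85 CPM against 16.2 and 20.2 CPM (control against GN, here and in the following) and rose by 2.25 (standard error 0.36, adjusted p = 0.00693). Pltp, which moves phospholipids between lipoproteins, was at 4.31 and 3.46 CPM against 17.8 and 12 CPM. It rose by 1.68 (adjusted p = 0.00579). The orphan G protein-coupled receptor Gpr146 had 2.12 and 2.76 CPM against 7.69 and 9.38 CPM and rose by 1.47 (adjusted p = 0.0179). All these genes but Capg were low in the control macrophages, at under 5 CPM, and the 2 GN libraries were well above the 2 control libraries in each. Of the rest of the 14 largest rises, Alox5, Fcgr2b, Tlr5, Cmklr1, Ptgs1 and the MHC class II genes RT1-Ba, RT1-Bb, RT1-Da and RT1-Db1 are described with their groups. Capg kept its call without each of the 4 libraries in turn. The call was lost for Sema4a without GN replicate 2 (adjusted p = 0.107), Pltp without GN replicate 1 (adjusted p = 0.112) and Gpr146 without GN replicate 1, GN replicate 2 or control replicate 1 (adjusted p from 0.109 to 0.214).

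The largest falls were smaller in size and fell on genes at moderate levels. Serpinb8, an intracellular inhibitor of serine proteases, gave 9.59 and 12.5 CPM in the control libraries and 3.87 and 3.05 CPM in the GN libraries, a fall of 1.43 on the log2 scale (standard error 0.25, adjusted p = 0.013). Ifi27l2b, a member of an interferon-inducible family, was at 83.7 and 55.8 CPM against 31.3 and 22.4 CPM (log2 difference −1.34, adjusted p = 0.0743). Tgfbi, a matrix protein induced by TGF-β, went from 718 and 1004 CPM in the control libraries to 441 and 512 CPM in the GN libraries (log2 difference −0.84, adjusted p = 0.0119). In each of these genes the GN libraries were below both control libraries.

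Of the other large falls, 7 genes had control levels of 7.32 to 347 CPM. Phospholipase C beta 1 (Plcb1) was at 18.4 and 18 CPM against 10.2 and 7.08 CPM (log2 difference −1.01, adjusted p = 0.0542), and Rgs1, which shortens signaling by G protein-coupled receptors, was at 133 and 91.3 CPM against 62.4 and 58.9 CPM (log2 difference −0.85, adjusted p = 0.0861). The nuclear protein Csrnp1 was at 347 and 252 CPM against 162 and 163 CPM (log2 difference −0.86, adjusted p = 0.00693), and the zinc finger factor Hivep2 at 24.1 and 27.1 CPM against 13.7 and 13.7 CPM (log2 difference −0.86, adjusted p = 0.0135). The GN libraries gave nearly the same value in both genes, and the control libraries differed more. Mob1b, an adaptor of the Hippo kinases, had 7.32 and 11.7 CPM against 4.54 and 4.41 CPM (log2 difference −0.91, adjusted p = 0.0998). The arginine deiminase Padi2 was at 19.7 and 31.5 CPM against 12.8 and 12.9 CPM (log2 difference −0.90, adjusted p = 0.0658) and the lipase Lipg at 32.1 and 29.8 CPM against 15.6 and 18 CPM (log2 difference −0.85, adjusted p = 0.0179). Hes1, Ccl3, Atf3 and the B cell receptor chain Cd79b complete the 14 largest falls and are described with their groups. Csrnp1 kept its call without each of the 4 libraries in turn, and the others lost it, Plcb1 without each library of the 4 in turn (adjusted p from 0.109 to 0.489), Rgs1 without GN replicate 1, GN replicate 2 or control replicate 1 (adjusted p from 0.309 to 0.537), Hivep2 without GN replicate 1, GN replicate 2 or control replicate 2 (adjusted p = 0.122), Mob1b without GN replicate 1, GN replicate 2 or control replicate 2 (adjusted p from 0.349 to 0.523), Padi2 without GN replicate 1, GN replicate 2 or control replicate 2 (adjusted p from 0.286 to 0.408) and Lipg without GN replicate 1 or control replicate 1 (adjusted p from 0.133 to 0.188). Among the first 3 falls given, the call was lost for Serpinb8 without GN replicate 2 or control replicate 2 (adjusted p from 0.132 to 0.168), Ifi27l2b without each library of the 4 in turn (adjusted p from 0.114 to 0.528) and Tgfbi without GN replicate 1 or control replicate 2 (adjusted p from 0.113 to 0.165).

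**Figure D2:**
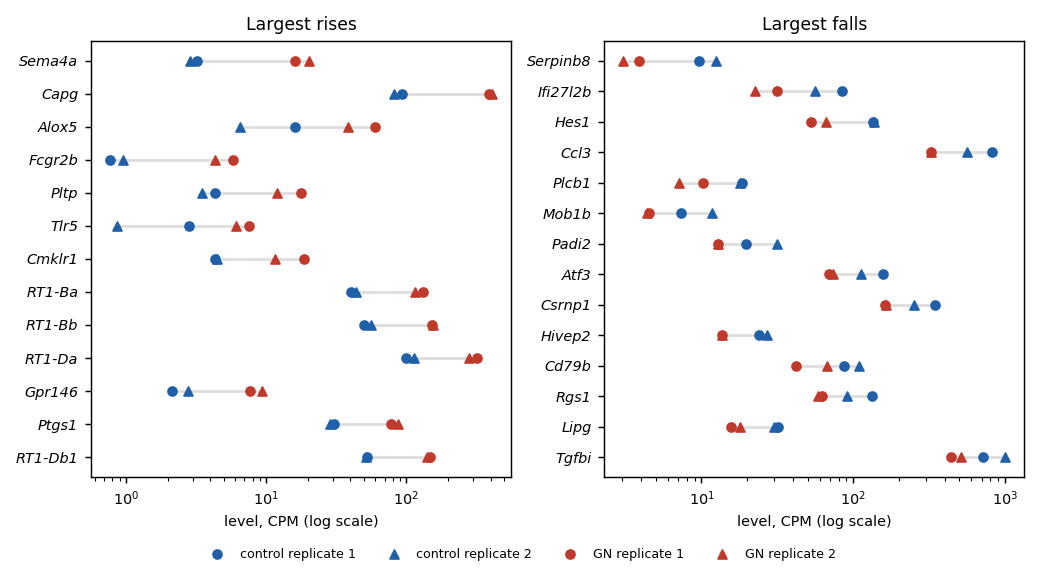
Level in CPM (log x axis) of genes among the 14 with the largest rise (left) and of the 14 with the largest fall (right) in each library, with control in blue and GN in red, replicate 1 as circles and replicate 2 as triangles. In no gene do the colors overlap, since this was part of the rule that chose the genes, and in Sema4a and Capg the lowest GN value is more than 4-fold above the highest control value.

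The 4 genes of the classical MHC class II molecules rose together in GN macrophages. MHC class II molecules are pairs of an alpha and a beta chain that show peptides to CD4 T cells, and the rat has them at the RT1-D and RT1-B loci. The alpha chain gene RT1-Da gave 98.9 and 114 CPM in the control libraries and 318 and 282 CPM in the GN libraries, so both GN values were more than 2-fold above both control values (log2 difference 1.49, standard error 0.21, adjusted p = 0.00373). Its partner, the beta chain gene RT1-Db1, was at 52.4 and 52 CPM against 147 and 141 CPM (log2 difference 1.45, standard error 0.26, adjusted p = 0.0135). At the other locus, the alpha chain gene RT1-Ba was at 40.6 and 44 CPM against 132 and 116 CPM (log2 difference 1.53, standard error 0.27, adjusted p = 0.0132), and the beta chain gene RT1-Bb at 49.7 and 55.9 CPM against 152 and 155 CPM (log2 difference 1.52, standard error 0.27, adjusted p = 0.0126). The size of the rise was thus nearly equal in the 4 genes, between 1.45 and 1.53, and replicates of a group were close to each other.

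The other 7 class II genes of the list did not pass the test. Of 11 genes of the list in the table, 4 were called higher and none lower, against 0.933% and 0.822% of all genes, and the median difference was 0.37. This median was 0.61 with a pseudocount of 0.1, 0.67 by edgeR or DESeq2 and 0.73 over the 10 genes with a mean of at least 5 CPM. The invariant chain Cd74, which occupies the peptide groove until the endosome, was at 869.6 and 921 CPM against 1202 and 1115 CPM (log2 difference 0.37, adjusted p = 0.386, and 0.0539 in a fit of the 4 libraries alone). Ciita, the coactivator that class II transcription depends on, was at 2.97 and 5.03 CPM against 8.91 and 9.94 CPM (log2 difference 1.09, adjusted p = 0.411, and 0.0985 in a fit of the 4 libraries alone), with both GN values above both control values. The peptide-exchange factor genes RT1-DMa and RT1-DMb had differences of −0.17 and −0.31 (adjusted p = 0.859 and 0.642). The protease Ctss, which trims the invariant chain, had 0.06 (adjusted p = 0.85). None of the 20 genes of class I presentation in the table was called. Of the markers of other cells that carry class II, Flt3 of dendritic cells was at 1.23 and 1.24 CPM against 0.631 and 2.07 CPM and Zbtb46 at 27.2 and 22.6 CPM against 31.9 and 30.8 CPM, Ms4a1 of B cells was at 0.385 and 0.454 CPM against 0.434 and 0.527 CPM, and B cell markers summed to 220.5 to 242 CPM in control and 184 to 243 CPM in GN. RT1-Da kept its call without each of the 4 libraries in turn, whereas the call was lost for RT1-Db1 without GN replicate 1 or GN replicate 2 (adjusted p from 0.122 to 0.139), RT1-Ba without GN replicate 1 or GN replicate 2 (adjusted p from 0.106 to 0.158) and RT1-Bb without GN replicate 1, GN replicate 2 or control replicate 1 (adjusted p from 0.101 to 0.134). Without the intensity trend of the variances 1 class II gene was called (0.666% of all genes), and in a fit of the 4 libraries alone 6 were (2.12% of all genes). Reads of WKY/NCrj rats were counted on the reference of another strain, and MHC loci vary between strains and hold near-identical copies, so the absolute levels of the RT1 genes are uncertain.

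The promoters of the 4 class II genes are shown because the genes rose together and each promoter carries the same short element. The Y box, CTGATTGG on either strand, is 1 of the conserved elements of class II promoters and binds the factor NF-Y. It was found within 250 bases upstream of the start in all 4 called class II genes, in 5 of the 9 class II genes with a promoter, and in 342 of 6970 promoters of the table's genes (4.91%). Among all called genes with a promoter, it was in 5 of 62 called higher (8.06%), these 4 among them, and in 7 of 54 called lower (13%). A match is a description of letters and not of binding. The last 150 bases before the RefSeq start are printed from the rat reference GRCr8, 5′ to 3′ on the strand of the gene, with the Y box in capitals. They lie on chromosome 20, upstream of the annotated transcript, at chr20:4515265-4515414 (plus strand), chr20:4560163-4560312 (minus strand), chr20:4576907-4577056 (plus strand) and chr20:4604119-4604268 (minus strand). The element begins 52, 83, 46 and 64 bases upstream of the start in that order.
RT1-Da: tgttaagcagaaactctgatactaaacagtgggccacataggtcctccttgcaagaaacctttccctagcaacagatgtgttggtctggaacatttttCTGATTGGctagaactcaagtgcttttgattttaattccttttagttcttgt
RT1-Db1: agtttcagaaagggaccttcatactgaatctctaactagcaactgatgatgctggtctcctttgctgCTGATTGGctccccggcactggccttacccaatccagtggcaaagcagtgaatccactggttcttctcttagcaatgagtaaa
RT1-Ba: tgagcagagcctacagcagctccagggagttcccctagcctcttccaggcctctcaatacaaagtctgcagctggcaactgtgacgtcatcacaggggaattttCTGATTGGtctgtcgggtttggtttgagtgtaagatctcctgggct
RT1-Bb: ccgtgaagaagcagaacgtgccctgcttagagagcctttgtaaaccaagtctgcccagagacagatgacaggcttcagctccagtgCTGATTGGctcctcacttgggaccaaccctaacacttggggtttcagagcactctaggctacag

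Enzymes that make eicosanoids rose at 3 steps. Ptgs1, the constitutive cyclooxygenase COX-1, gave 30.7 and 28.4 CPM in the control libraries and 78.3 and 86.7 CPM in the GN libraries, with a log2 difference of 1.45 (standard error 0.15, adjusted p = 0.000435). Tbxas1, which turns the cyclooxygenase product into thromboxane A, was at 33.9 and 41.2 CPM against 105 and 87.5 CPM (log2 difference 1.33, standard error 0.18, adjusted p = 0.00286). Alox5, the 5-lipoxygenase that starts leukotriene synthesis, was at 16.2 and 6.52 CPM against 59.8 and 38.5 CPM (log2 difference 2.11, standard error 0.32, adjusted p = 0.00549). In Ptgs1 and Tbxas1 the replicates were close, whereas in Alox5 both groups had a spread of more than 1.5-fold and still did not overlap.

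The rest of the pathway did not pass the test. Of the 16 genes in the table, 3 were called higher and none lower, against 0.933% and 0.822% of all genes, and the median difference was 0.10. Lta4h, which makes leukotriene B, was at 12.4 and 16.9 CPM against 23.2 and 32.7 CPM (log2 difference 0.88, adjusted p = 0.114). The 5-lipoxygenase partner Alox5ap was at 294 and 307 CPM against 294 and 318 CPM, and the inducible cyclooxygenase Ptgs2 at 10.4 and 5.65 CPM against 4.62 and 7.04 CPM (adjusted p = 0.758). The phospholipase Pla2g4a, which releases arachidonic acid, had a difference of 0.28 (adjusted p = 0.568), and the prostaglandin E receptor genes Ptger2 and Ptger4 had 0.16 and −0.34 (adjusted p = 0.935 and 0.393). Ptgs1 and Tbxas1 are also made by platelets. The platelet markers Pf4 and Ppbp were looked for but were absent from the table, which holds no gene with a maximum under 1 CPM. Of the 15 erythroid and platelet markers the globins Hba1 and Hbb were in the table, with a summed level of 1.19 to 1.61 CPM in control and 6.44 to 7.26 CPM in GN, and both rose (Hba1 0.193 and 0.165 CPM against 2.01 and 2.33 CPM, log2 difference 1.43, adjusted p = 0.0439, and Hbb 1 and 1.44 CPM against 5.25 and 4.11 CPM, log2 difference 1.35, adjusted p = 0.0239). The part of such cells in the result was not tested. Ptgs1 and Tbxas1 kept their calls without each of the 4 libraries in turn. The call was lost for Alox5 without GN replicate 1 (adjusted p = 0.109), Hba1 without each library of the 4 in turn (adjusted p from 0.173 to 0.328) and Hbb without GN replicate 1, GN replicate 2 or control replicate 1 (adjusted p from 0.114 to 0.227).

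**Figure D3:**
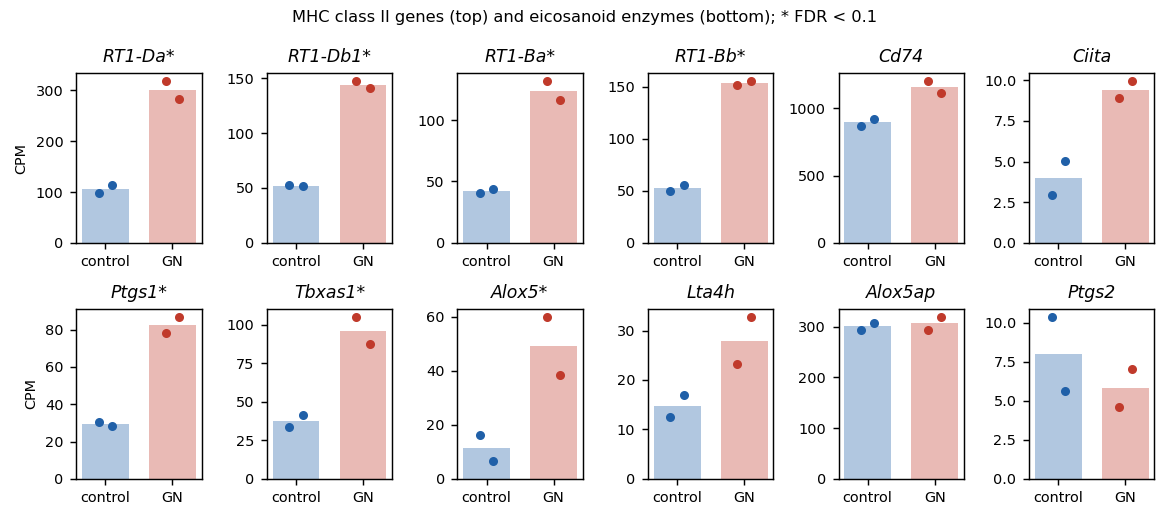
Level in CPM of 6 MHC class II genes (top row) and 6 eicosanoid genes (bottom row), with bars for the mean of the 2 libraries of a group and points for each library, each panel on its own axis from 0. Asterisks mark an FDR under 0.1. The GN points are above the control points in the 7 genes with an asterisk, and close to them in Alox5ap.

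Immediate early genes were lower in GN macrophages, the list with the most falls. Of 29 in the table, 9 were called lower and none higher, against 0.822% of all genes called lower. The median difference was −0.49, 27 of the 29 fitted differences were below 0 (50.1% of all genes), and in 24 both GN values were below both control values (22.0% of all genes). The eIF2α phosphatase subunit Ppp1r15a, which ends the integrated stress response, gave 1693 and 1279 CPM in the control libraries and 872 and 794 CPM in the GN libraries (log2 difference −0.82, standard error 0.12, adjusted p = 0.00543). The stress-induced repressor Atf3 was at 156 and 112 CPM against 69.7 and 73.5 CPM (log2 difference −0.88, standard error 0.17, adjusted p = 0.0181). Of the AP-1 proteins, Jund was at 1307 and 1039 CPM against 715 and 687 CPM (log2 difference −0.73, adjusted p = 0.0332). In all 3 genes the GN libraries were close to each other and control replicate 1 was the highest library. Spleens had been digested with collagenase before the sort, and the part of this handling in the levels of early genes was not tested.

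Further members called were regulators and phosphatases. The transcription factor Klf2 was at 220.0 and 183 CPM against 129 and 127 CPM (log2 difference −0.65, adjusted p = 0.0743). The early response genes Ier2 and Ier5 had 1386 and 1211 CPM against 971 and 939 CPM and 1070.0 and 967 CPM against 739.9 and 723 CPM (log2 differences −0.44 and −0.48, adjusted p = 0.0231 and 0.0179). The ERK phosphatase Dusp5 was at 239.7 and 209 CPM against 172 and 148 CPM (log2 difference −0.49, adjusted p = 0.0887). Zfp36, which marks cytokine mRNAs for decay, was at 2855 and 2326 CPM against 1770.0 and 1598 CPM (log2 difference −0.62, adjusted p = 0.048). The Notch target Hes1, whose control libraries were nearly equal, was at 135 and 138 CPM against 53 and 66.4 CPM (log2 difference −1.19, standard error 0.13, adjusted p = 0.000435).

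Some members that did not pass had differences of similar size. Fos was at 3828 and 3174 CPM against 2151 and 1924 CPM (log2 difference −0.78, adjusted p = 0.254, and 0.0104 in the fit of the 4 libraries alone), and Egr1 at 253 and 132 CPM against 88.7 and 113 CPM (log2 difference −0.86, adjusted p = 0.337). Klf4 and Nr4a2 had log2 differences of 0.01 and 0.01. In the plot of early genes by library, control replicate 1 lay above control replicate 2 in every gene but Hes1. Without control replicate 1, 2 members were called and the median difference was −0.39, without control replicate 2 they were 7 with −0.65, and without either GN library 2. Without the intensity trend, 2 members were called, and in the fit of the 4 libraries alone 16 (1.19% of all genes called lower). With the block among the EV libraries 18 were called lower (2.28% of all genes). Hes1 and Ppp1r15a kept their calls without each of the 4 libraries in turn, whereas the call was lost for Atf3 without GN replicate 1, GN replicate 2 or control replicate 1 (adjusted p from 0.142 to 0.187), Jund without GN replicate 1, GN replicate 2 or control replicate 1 (adjusted p from 0.173 to 0.288), Klf2 without each library of the 4 in turn (adjusted p from 0.116 to 0.442), Ier2 without GN replicate 1, GN replicate 2 or control replicate 1 (adjusted p from 0.158 to 0.244), Ier5 without GN replicate 1, GN replicate 2 or control replicate 1 (adjusted p from 0.139 to 0.198), Dusp5 without each library of the 4 in turn (adjusted p from 0.139 to 0.611) and Zfp36 without GN replicate 1, GN replicate 2 or control replicate 1 (adjusted p from 0.165 to 0.43).

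**Figure D4:**
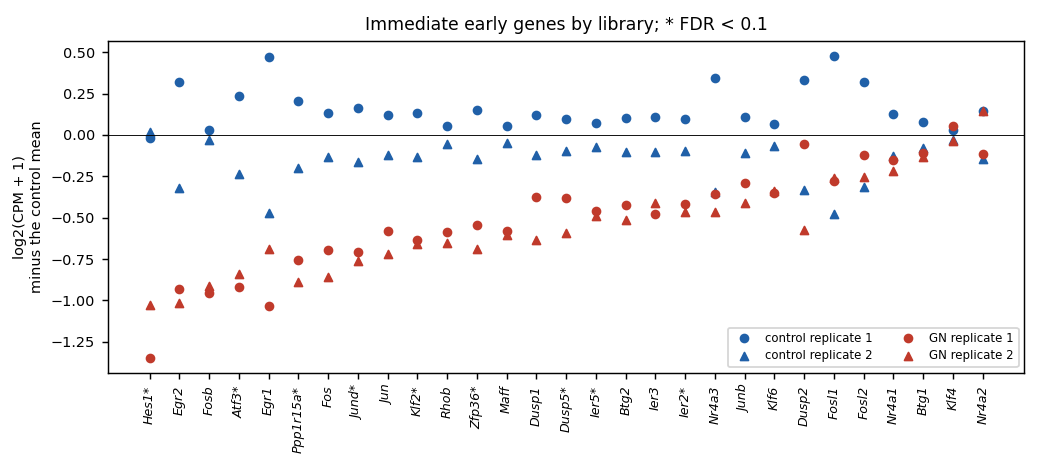
Immediate early genes by library, as log2(CPM + 1) minus the mean of the 2 control libraries, ordered by the GN minus control difference. Asterisks mark an FDR under 0.1. GN libraries (red) are below both control libraries (blue) in 24 of the 29 genes, and the control libraries are apart from each other in Egr1, Fosl1 and Egr2.

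Promoters of 3 called early genes are shown because they hold the full cAMP response element, TGACGTCA, which reads the same on both strands and binds CREB and ATF proteins. It was found in 3 of the 7 called early genes with a promoter, in 6 of the 23 early genes with a promoter (26.1%), and in 220 of 6970 promoters (3.16%). The promoter of RT1-Ba holds it too. The element is in capitals, and the stretches (250 bases for Jund, 150 for the others) end at the base before the RefSeq start in GRCr8, on the strand of the gene. They are upstream of the annotated transcript, at chr16:18769772-18770021 for Jund (minus strand), chr19:40399223-40399372 for Ier2 (plus strand) and chr1:105139597-105139746 for Ppp1r15a (minus strand). The element begins 221 bases upstream of the start in Jund, and 66 bases upstream in both Ier2 and Ppp1r15a.
Jund: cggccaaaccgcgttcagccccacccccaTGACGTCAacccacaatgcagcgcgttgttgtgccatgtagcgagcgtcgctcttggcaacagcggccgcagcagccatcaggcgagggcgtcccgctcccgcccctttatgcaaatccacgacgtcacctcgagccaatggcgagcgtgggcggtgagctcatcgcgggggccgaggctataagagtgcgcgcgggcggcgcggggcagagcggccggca
Ier2: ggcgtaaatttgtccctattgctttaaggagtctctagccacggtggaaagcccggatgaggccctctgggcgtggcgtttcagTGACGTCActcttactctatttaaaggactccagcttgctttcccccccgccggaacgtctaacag
Ppp1r15a: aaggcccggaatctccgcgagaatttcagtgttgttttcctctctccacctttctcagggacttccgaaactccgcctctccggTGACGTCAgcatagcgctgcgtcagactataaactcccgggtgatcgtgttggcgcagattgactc

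Inflammatory signaling genes had few calls, all lower. Of 19 NF-kB and TNF target genes 2 were called lower and none higher, against 0.822% and 0.933% of all genes, with a median difference of −0.19. Without control replicate 1 the median was −0.0076, and no member was called without it or without either GN library. With the block among the EV libraries, 2 members were called higher and 5 lower. Nfkbia, the inhibitor that NF-kB itself induces, gave 4400.0 and 3591 CPM in the control libraries and 2775 and 2419 CPM in the GN libraries (log2 difference −0.62, adjusted p = 0.0658), and interleukin 1 beta (Il1b) was at 5157 and 3790.0 CPM against 2917 and 2770.0 CPM (log2 difference −0.64, adjusted p = 0.0772). The subunits Nfkb1 and Rela had differences of −0.08 and −0.02 (adjusted p = 0.814 and 0.961). Of 11 chemokines the macrophage inflammatory protein Ccl3 was called, at 825 and 563 CPM against 325 and 324 CPM (log2 difference −1.07, standard error 0.17, adjusted p = 0.00786), with GN libraries nearly equal, whereas Ccl2 was at 33.7 and 36.8 CPM against 37.9 and 40.9 CPM. The fall of Ccl3 did not stand for the chemokines, whose median difference was 0.17, with 7 of 11 fitted differences above 0. In 6 chemokines both GN values were above both control values, and in 3 below (21.9% and 22.0% of all genes). DESeq2 called 1 chemokine higher and 1 lower, and the block among the EV libraries 2 higher and 1 lower. None of the 20 members of the TNF superfamily and its receptors was called. The calls of Nfkbia and Il1b were lost without GN replicate 1, GN replicate 2 or control replicate 1, and that of Ccl3 without GN replicate 1.

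No gene of the interferon response list was called, although most were at lower levels in GN. Ifi27l2b, called lower and given with the largest falls, is not in this list. Of 35 in the table, 33 had a fitted difference below 0 (50.1% of all genes), 21 had both GN values below both control values (22.0% of all genes), 16 had an unadjusted p under 0.05 (10.4% of all genes), and the median difference was −0.36. The antiviral GTPase Mx2 was at 682 and 453 CPM against 334 and 235 CPM (log2 difference −0.99, adjusted p = 0.134), Ifit3 at 1288 and 806 CPM against 682 and 486 CPM (−0.82, adjusted p = 0.12) and the regulator Irf7 at 2072 and 1621 CPM against 1281 and 968 CPM (−0.72, adjusted p = 0.159). In all 3 genes control replicate 1 was the highest and GN replicate 2 the lowest library. Gbp2 was at 605 and 477 CPM against 578 and 552 CPM (0.07). The median was −0.15 without control replicate 1, −0.24 without GN replicate 2 and −0.52 without control replicate 2. By edgeR's test, which called 1.63% of all genes, no member was called. DESeq2 called 4 members lower (1.52% of all genes), a fit of the 10 libraries blocked by replicate number 11 (1.28% of all genes), and the block among the EV libraries alone 10 (2.28% of all genes).

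Chemoattractant receptors changed in both directions. Of 11 in the table, 2 were called higher and 2 lower, against 0.933% and 0.822% of all genes. The chemerin receptor Cmklr1 gave 4.35 and 4.5 CPM in the control libraries and 18.7 and 11.5 CPM in the GN libraries (log2 difference 1.53, standard error 0.34, adjusted p = 0.0452). Its control libraries were nearly equal, and GN replicate 1 was the higher of the GN libraries. In contrast Cxcr4, the receptor of the retention chemokine Cxcl12, was at 590.1 and 505 CPM against 310.0 and 301 CPM (log2 difference −0.84, standard error 0.13, adjusted p = 0.00543), and the chemerin-binding receptor Ccrl2 was at 1068 and 924 CPM against 693 and 727 CPM (log2 difference −0.48, adjusted p = 0.0331). The fractalkine receptor Cx3cr1 was at 399 and 449 CPM against 390.4 and 444 CPM (−0.02, adjusted p = 0.972), and the complement receptor C5ar1 at 547 and 616 CPM against 592 and 629.6 CPM (0.07, adjusted p = 0.865). Cxcr4 kept its call without each of the 4 libraries in turn, and the call was lost for Cmklr1 without each library of the 4 in turn (adjusted p from 0.107 to 0.372) and Ccrl2 without GN replicate 1, GN replicate 2 or control replicate 1 (adjusted p from 0.18 to 0.283).

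Receptors for immune complexes and microbial products also changed in both directions. Over all genes, 0.933% were called higher and 0.822% lower. Of 7 Fc receptor genes, Fcgr3a, the abundant activating IgG receptor, gave 2397 and 2675 CPM in the control libraries and 1699 and 1772 CPM in the GN libraries and fell by 0.55 (standard error 0.091, adjusted p = 0.01). The inhibitory receptor Fcgr2b was at 0.77 and 0.949 CPM against 5.84 and 4.29 CPM and rose by 1.70 (standard error 0.30, adjusted p = 0.0137), from a level in control of less than 1 CPM. The high-affinity receptor Fcgr1a had a difference of −0.11 and the shared signaling chain Fcer1g of −0.18 (adjusted p = 0.795 and 0.67). Fc receptor genes are similar in sequence, so reads may be shared between them.

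Of 22 Toll-like receptor genes, 2 were called higher (0.933% of all genes) and 1 lower (0.822%). The flagellin receptor Tlr5 was at 2.81 and 0.866 CPM against 7.49 and 6.14 CPM (log2 difference 1.55, adjusted p = 0.0331), and Cd14, which binds lipopolysaccharide, at 140.2 and 95.5 CPM against 207 and 159.5 CPM (log2 difference 0.65, adjusted p = 0.0998). The receptor of CpG DNA Tlr9 was at 43.6 and 49.8 CPM against 27.9 and 25.3 CPM (log2 difference −0.79, adjusted p = 0.0452). Tlr4 and Tlr2 had differences of −0.09 and 0.10 (adjusted p = 0.84 and 0.715). Among 14 C-type lectins the β-glucan receptor Clec7a fell, from 473 and 519.5 CPM in the control to 381 and 346 CPM in the GN libraries (log2 difference −0.45, adjusted p = 0.0264). With a library left out, the call was lost for Fcgr3a without GN replicate 1 or control replicate 2 (adjusted p from 0.111 to 0.132), Fcgr2b without GN replicate 1 or control replicate 1 (adjusted p from 0.1 to 0.165), Tlr5 without GN replicate 1, GN replicate 2 or control replicate 2 (adjusted p from 0.168 to 0.247), Cd14 without GN replicate 1, GN replicate 2 or control replicate 2 (adjusted p from 0.143 to 0.556), Tlr9 without each library of the 4 in turn (adjusted p from 0.115 to 0.366) and Clec7a without GN replicate 1, GN replicate 2 or control replicate 2 (adjusted p from 0.109 to 0.328).

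Complement genes had 3 of 22 called higher and none lower, against 0.933% and 0.822% of all genes, with a median difference of 0.18, which was 0.31 by DESeq2 or without control replicate 1 and 0.28 over genes with a mean of at least 5 CPM. The classical pathway protease C2 gave 141 and 122 CPM in the control libraries and 274 and 227 CPM in the GN libraries (log2 difference 0.92, standard error 0.16, adjusted p = 0.0112). The complement receptor chain and macrophage marker Itgam (CD11b) was at 418 and 388 CPM against 632 and 568 CPM (log2 difference 0.57, adjusted p = 0.0126), and the membrane attack inhibitor Cd59 at 1462 and 1582 CPM against 1937 and 1911 CPM (log2 difference 0.34, adjusted p = 0.0939). C3 was at 436 and 463 CPM against 537 and 605 CPM (0.34, adjusted p = 0.159) and C1qb at 4.82 and 3.84 CPM against 11.2 and 8.66 CPM (1.04, adjusted p = 0.196). CD11b was part of the isolation, by an antibody that also binds CD11c. With a library left out, the call was lost for C2 without GN replicate 1 or control replicate 2 (adjusted p from 0.111 to 0.16), Itgam without GN replicate 1 or control replicate 2 (adjusted p from 0.116 to 0.165) and Cd59 without each library of the 4 in turn (adjusted p from 0.176 to 0.478). Without the intensity trend no complement gene was called higher and 1 was called lower, and with the block among the EV libraries 5 were called higher and 1 lower.

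Transcription factors of macrophages fell where they were called. Of 29 colony-stimulating factor receptors and macrophage factors, 4 were called lower (0.822% of all genes) and none higher, and without any 1 of the 4 libraries 1 was called. The lipid-sensing receptor Pparg, which promotes alternative activation, gave 210.2 and 220.1 CPM in the control libraries and 145 and 138 CPM in the GN libraries (log2 difference −0.60, standard error 0.088, adjusted p = 0.00454). The inhibitor of differentiation Id2 was at 527 and 433 CPM against 324 and 296 CPM (log2 difference −0.62, adjusted p = 0.0887), and the Wnt effector Tcf7l2 at 77.7 and 72.5 CPM against 50.01 and 55.7 CPM (−0.50, adjusted p = 0.0742). Csf1r and Spi1 had differences of 0.21 and −0.0046 (adjusted p = 0.417 and 0.996). Of the 22 genes of alternative activation, 2 were called lower (0.822% of all genes) and none higher, Pparg among them. The list as a whole did not fall, with a median difference of 0.03. Of its fitted differences 16 were above 0 and 6 below (50.1% of all genes). In 6 genes both GN values were above both control values, and in 3 below (21.9% and 22.0% of all genes). Il10, the anti-inflammatory cytokine, was at 25.2 and 17 CPM against 12.7 and 14.7 CPM (−0.57, adjusted p = 0.486), and Stat6, which acts downstream of interleukin 4, at 486 and 460.2 CPM against 488 and 507 CPM (0.07, adjusted p = 0.875). Pparg kept its call without each of the 4 libraries in turn, and the call was lost for Id2 without each library of the 4 in turn (adjusted p from 0.124 to 0.528) and Tcf7l2 without each library of the 4 in turn (adjusted p from 0.183 to 0.403). Id2 was not called by edgeR's test.

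Genes of clearance, iron and metabolism had single calls. Called over all genes were 0.933% higher and 0.822% lower, so a single call says little about a list. The oxidized lipid receptor Cd36 was at 205 and 235 CPM against 156 and 176 CPM (log2 difference −0.40, adjusted p = 0.0743), the only call among 17 scavenger receptors. The legumain protease Lgmn was at 379.8 and 438 CPM against 316 and 301 CPM (−0.40, adjusted p = 0.048), the only call among 34 cathepsins and lysosomal enzymes, whose median was 0.14 and of which 20 had both GN values above both control values and 7 below (21.9% and 22.0% of all genes). Of 20 heme and iron genes the phagosomal metal transporter Slc11a1 was at 231 and 237 CPM against 172 and 151 CPM (−0.54, adjusted p = 0.0392), and the ferritin degradation receptor Ncoa4 at 32.2 and 32.9 CPM against 45.1 and 46.3 CPM (0.48, adjusted p = 0.098). The glucose transporter family member Slc2a6 was at 205 and 187 CPM against 287 and 255 CPM (0.46, adjusted p = 0.0368), the only call among 23 glycolysis genes. Anxa3 was at 45.6 and 43.9 CPM against 69.6 and 81.5 CPM (0.74, adjusted p = 0.0181), the only call among 14 annexins and S100 proteins, and the prohormone convertase Pcsk1 at 119 and 128 CPM against 162 and 188 CPM (0.50, adjusted p = 0.0179), the only call among 22 exocytosis genes. The calls of Slc11a1 and Ncoa4 were lost without each library of the 4 in turn. Those of Cd36, Lgmn and Slc2a6 were lost without GN replicate 1, GN replicate 2 or control replicate 2. Anxa3 lost its call without GN replicate 2 or control replicate 2, and Pcsk1 without GN replicate 2 or control replicate 1.

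None was called by limma in the fit of the 10 libraries without a block among 38 cell cycle genes (3 with an unadjusted p under 0.05), 27 cholesterol synthesis genes (3), 27 heat shock genes (6), 19 genes of the Bcl2 family (4) and 75 respiratory chain subunits (1). Among 83 ribosomal protein genes none was called, 9 had an unadjusted p under 0.05 (10.4% of all genes), 80 fitted differences were below 0 (50.1% of all genes) and the median was −0.22, or −0.11 without control replicate 2. In the fit of the 4 libraries alone, 4 heat shock and 3 ribosomal protein genes were called lower (1.19% of all genes). With the block among the EV libraries, 5 heat shock, 5 ribosomal protein, 3 Bcl2 family and 1 cholesterol synthesis gene were called lower (2.28% of all genes). In the plot of the gene lists, the early and interferon genes had the lowest medians and MHC class II the highest. In all, 47 of the 158 called genes were in a list and 111 in none.

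**Figure D5:**
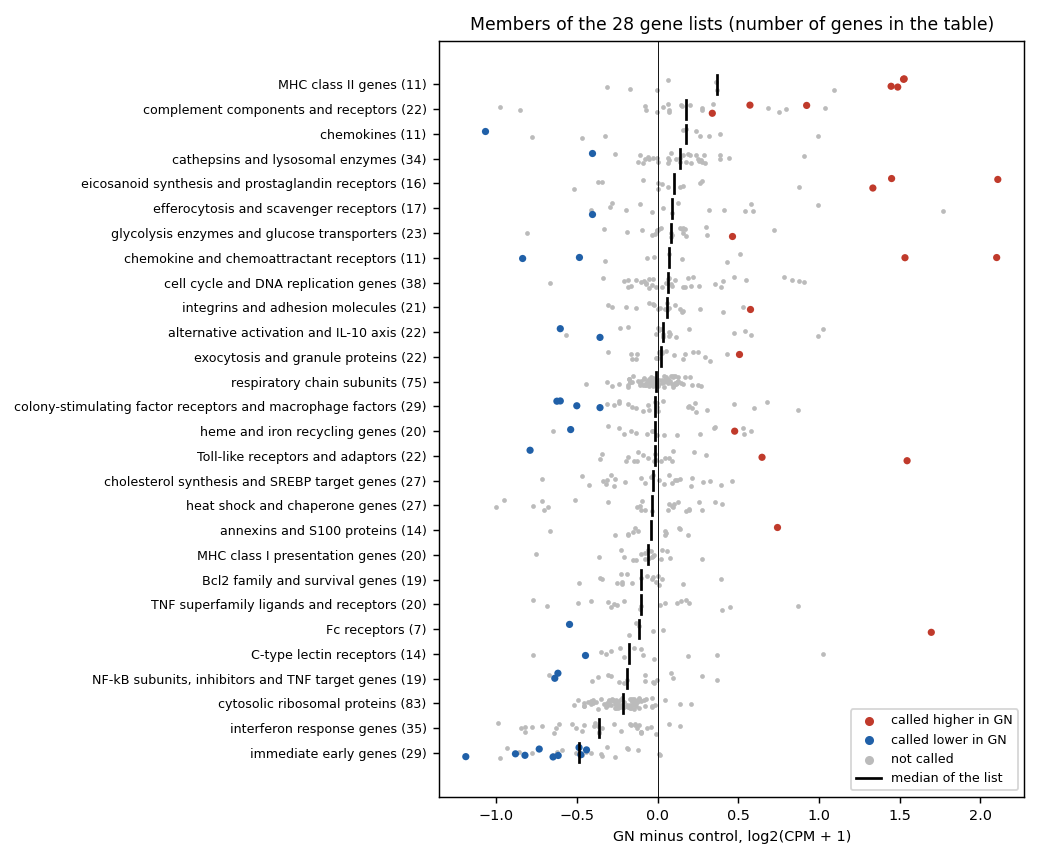
GN minus control difference (x axis, log2) of each member of 28 gene lists, ordered by the list's median (black bar), with the number of genes in the table in parentheses. Red and blue points are members called higher and lower in GN, gray points were not called. The called rises of MHC class II, eicosanoid and chemoattractant receptor genes stand apart from the other members of their lists, whereas the early genes lie below 0 almost as a whole.

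Markers of other cells that passed the test were few, where 1.75% of all genes were called. Cd79b, a B cell receptor chain, was at 87 and 109 CPM against 42.1 and 67.6 CPM and fell by 0.85 (standard error 0.17, adjusted p = 0.0331), the only call among 8 of 14 B cell markers in the table. Plvap, a protein of endothelial diaphragms, was at 108 and 82 CPM against 183 and 163 CPM and rose by 0.87 (standard error 0.14, adjusted p = 0.00829), whereas Pecam1 had a difference of 0.16 (adjusted p = 0.67). The 5 of 15 endothelial and stromal markers in the table summed to 258 to 275 CPM in control and 362 to 370 CPM in GN. The part of such cells in the differences was not tested. The call was lost for Cd79b without GN replicate 1 or control replicate 2 (adjusted p from 0.245 to 0.272) and Plvap without GN replicate 1 (adjusted p = 0.124).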

How the data were processed

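The table that the authors deposited holds a normalized signal, the TMM-normalized CPM of 9003 genes in 10 libraries. They made it by aligning paired-end reads to rn6 with STAR (version 2.5.3), counting reads per RefSeq gene with HTSeq (version 0.6.0), removing genes with a maximum under 1 CPM and scaling with edgeR. The library kit does not mark strand. All values (100%) were whole multiples of what 1 read is worth, within 0.01 reads, so the reads were recovered. All columns were used, and 18 symbols that had turned into dates could not be named.

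A pseudocount of 1 was added before taking log2, and GN was compared with control by limma (version 3.58.1, R version 4.3.3), in a fit of 4 groups and 10 libraries with 6 residual degrees of freedom and an intensity trend. Benjamini-Hochberg adjustment was over 9003 genes. An exact permutation test of 2 against 2 libraries cannot give a two-sided p under 0.333 and was not used. Alternatives were edgeR (version 4.0.16) and DESeq2 (version 1.42.0) on the recovered reads, RLE size factors, filters, a pseudocount of 0.1, no trend, an FDR under 0.05, the 4 libraries alone, the replicate number as a block (also among the EV libraries alone, chosen after seeing the data) and each library left out. In 3 simulations of 9003 genes for GN against control, only genes with a mean of at least 5 CPM were changed. Each gene was drawn independently, so shifts that the genes of a library share were not simulated. There limma recovered 53.2% of genes changed 1.5-fold, 86.1% of those changed 2-fold and 98.0% of those changed 3-fold. Of its calls, 9.51% were unchanged genes.

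The comparison, the 35 gene lists (28 of functions, 7 of cell markers) and the tests were chosen with earlier results of these data known. The pattern for ribosomal genes was corrected after the table was seen. Named are the 14 largest rises and 14 largest falls called at an FDR under 0.1, whose higher group had a mean of 5 CPM or more and whose groups did not overlap, without date, LOC or RGD symbols, then every called member and a few well-known other members of the function lists, and marker genes. Some of the genes this rule names are not reported here. Beyond this rule, Spi1, Nfkb1 and similar members that did not pass were added for their function, with more than 2 in some lists. Promoters (250 bases upstream, RefSeq, GRCr8) matched 6970 of the 9003 genes and 116 of the 158 called genes by symbol.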

Additional observations from a re-analysis of the deposited data

How the results depend on the processing

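With 2 libraries a group, the number of calls moved with the setting. Against 158 genes (84 higher and 74 lower in GN), DESeq2 called 294 (157 and 137), limma without the intensity trend 60 (41 and 19), an FDR under 0.05 left 97 (55 and 42), and a fit of the 4 libraries with the replicate number as a block gave 354 (145 and 209). In the fit of all 10 libraries this block gave 205 genes (90 and 115), of which 148 were among the 158. Control and GN libraries of the same number correlated at r = 0.088 across genes after the group means were subtracted, a single value that does not show them to be paired. Among the EV libraries, which add to the estimate of the spread, same-numbered EV-positive and EV-negative libraries correlated at 0.203, 0.295 and 0.122, and differently numbered ones at −0.23 to −0.013. Since group means were subtracted here too, positive values for same-numbered libraries push the others below them, so this contrast is partly built in. A block for these 3 pairs alone, chosen after seeing the data, called 392 genes (187 and 205), all of the 158 among them, and all 61 named genes kept their call. Leaving out 1 library at a time gave between 34 and 214 genes, between 19 and 108 higher and between 15 and 106 lower. The lowest counts came from leaving out GN replicate 1 (34), GN replicate 2 (41), control replicate 2 (75) and control replicate 1 (87), fits in which the lone sample is assumed to vary like the other groups. edgeR's test (147), RLE size factors (153), a pseudocount of 0.1 (156), both filters (158 and 160) and the 4 libraries alone (191, of which 107 lower) stayed within 1.5 times of the count. Of the 158 genes, 143 were also called by edgeR (not Dusp5, Id2 and Cd14 among the genes named in the text) and 132 in the fit of the 4 libraries alone. Among 61 named genes recomputed under 21 settings, 40 lost the call without the trend, and many lost it without a GN or control library. No difference changed sign. Leaving out a library could not change a sign, since the GN and control values of the called genes did not overlap, and several other settings leave the difference as it is. The cause of these lost calls was not tested beyond the smaller number of samples where a library was left out. Values under about 0.12 CPM rest on 3 or fewer reads and limit what can be said of the lowest genes, such as Mrc1 and Cd163, which were at 0 in control replicate 2.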

Other observations

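Among the 111 called genes outside the gene lists, several rises were in the cytoskeleton beside Capg. These genes were chosen after their values were seen, so their grouping is a description. The intermediate filament vimentin (Vim) was at 653 and 575 CPM against 906 and 891 CPM (control against GN, log2 difference 0.55, adjusted p = 0.0116), the adhesion plaque protein vinculin (Vcl) at 16.4 and 11.7 CPM against 27.6 and 28.7 CPM (0.97, adjusted p = 0.0452), the actin-severing gelsolin (Gsn) at 51 and 50.7 CPM against 69.7 and 75.4 CPM (0.50, adjusted p = 0.048), and Lims1, which links integrins to actin, at 53.1 and 50.8 CPM against 92.2 and 88.5 CPM (0.79, adjusted p = 0.00286). In each the GN libraries were above both control libraries. Other rises were in phagocyte effector genes. The NADPH oxidase subunit Ncf1 was at 65.3 and 62.9 CPM against 148 and 147 CPM (1.19, standard error 0.097, adjusted p = 3.59e-05), with replicates of a group within a few percent of each other. The lysosomal thiol reductase Ifi30, which unfolds antigens for class II presentation, was at 84.9 and 76.2 CPM against 194 and 175 CPM (1.19, adjusted p = 0.000538), and the cathepsin inhibitor Cst7 at 67.7 and 52.5 CPM against 129 and 145 CPM (1.19, adjusted p = 0.00304). Irg1, which makes itaconate, was at 48.7 and 45.2 CPM against 105 and 89.9 CPM (1.03, adjusted p = 0.00543), the receptor of platelet-activating factor Ptafr at 16.6 and 17.9 CPM against 45.5 and 38.2 CPM (1.22, adjusted p = 0.014), and the lipoprotein lipase Lpl at 40.6 and 36.7 CPM against 108 and 76.3 CPM (1.21, adjusted p = 0.000958). Lims1, Ncf1, Ifi30, Cst7 and Lpl kept their calls without each of the 4 libraries in turn, and the call was lost for Vim without GN replicate 1, GN replicate 2 or control replicate 2 (adjusted p from 0.107 to 0.124), Vcl without GN replicate 1, GN replicate 2 or control replicate 2 (adjusted p from 0.226 to 0.325), Gsn without each library of the 4 in turn (adjusted p from 0.165 to 0.416), Irg1 without GN replicate 1 (adjusted p = 0.101) and Ptafr without GN replicate 1 or control replicate 1 (adjusted p from 0.103 to 0.165).

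Falls outside the lists, also chosen after their values were seen, included stress-response genes. Gadd45b was at 648 and 566 CPM against 369 and 363 CPM (−0.72, adjusted p = 0.0029) and its relative Gadd45a at 94 and 81.8 CPM against 62.3 and 56.2 CPM (−0.56, adjusted p = 0.0179). Falls were also found in lipid and metabolite genes, with the lipid droplet coat protein Plin2 at 1732 and 1712 CPM against 1383 and 1294 CPM (−0.36, adjusted p = 0.0417) and the niacin receptor Niacr1 at 172 and 140.3 CPM against 87.8 and 90.2 CPM (−0.80, adjusted p = 0.0437). The gap junction protein Gjb2 was at 414 and 376 CPM against 271 and 281 CPM (−0.51, adjusted p = 0.00549) and the cytokine subunit Ebi3 at 68.7 and 89.3 CPM against 43 and 54.7 CPM (−0.68, adjusted p = 0.0826). Gadd45b and Gjb2 kept their calls without each of the 4 libraries in turn. The call was lost for Gadd45a without GN replicate 2 or control replicate 1 (adjusted p from 0.168 to 0.23), Plin2 without each library of the 4 in turn (adjusted p from 0.165 to 0.421), Niacr1 without GN replicate 1, GN replicate 2 or control replicate 1 (adjusted p from 0.247 to 0.328) and Ebi3 without GN replicate 1, GN replicate 2 or control replicate 2 (adjusted p from 0.145 to 0.495).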
